A study of Mus musculus with 12 samples.

Results

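Cholesterol and fatty acid synthesis was followed through 36 genes of the 21556 in the count table. They were taken by name along the route from acetyl-CoA to cholesterol and to long-chain unsaturated fatty acids, with the genes that control the route and those that export sterol. The rule used no measured value. Of the 36 genes, 7 belong to the mevalonate and isoprenoid steps, 11 to the steps from squalene to cholesterol, 6 to the SREBP (sterol regulatory element binding protein) system with 1 sterol carrier, 9 to fatty acid synthesis and desaturation, and 3 to sterol efflux and the liver X receptor (LXR).

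RNA of whole cultures was sequenced. The cells were primary fibroblasts from the abdominal skin of mice, either wild type (WT, C57BL/6) or carrying a germline Nox4 deletion (Nox4 KO, B6.129-Nox4tm1Kkr/J). Nox4 encodes an NADPH oxidase that makes hydrogen peroxide. All cells were starved for 24 h. Stimulated cells then received 10 ng/ml TGF-β2, a cytokine that turns fibroblasts into contractile myofibroblasts, for 24 h, and control cells received no TGF-β2. Each of the 4 groups (WT control, WT TGF-β2, Nox4 KO control and Nox4 KO TGF-β2) held 3 libraries, called biological replicates by the submitters. Whether these came from separate animals is not given in the sources used here, so p-values measure the spread between these cultures. Total counts per library lay between 35118344 and 43796260. Levels are given in RPKM, the count scaled by gene length and by the library's total, and changes as log2 fold changes from edgeR's quasi-likelihood test. That test did not pair libraries, except where a block on the replicate number is named. A gene was tested where its mean reached 1 RPKM in at least 1 of the groups compared, and was called where the p-value adjusted by Benjamini and Hochberg over all genes tested was below 0.05. In RNA from a whole culture, fewer cells of a kind and less RNA per cell cannot be told apart.

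All 10 fibroblast markers reached a mean of 1 RPKM in at least 1 group, and 0 of 7 sebocyte and 0 of 7 keratinocyte markers did. Nox4 stood at 1.31 to 2.42 RPKM in WT control and at 0.636 to 1.4 RPKM in Nox4 KO control, and its log2 difference of -0.99 ± 0.37 (SE) was not called (adjusted p = 0.83). The gene-level count adds exons inside and outside the deleted part, so it does not check the genotype labels. Nox4 rose after TGF-β2 by 2.83 ± 0.32 on the log2 scale in WT and by 2.65 ± 0.36 in Nox4 KO, and Acta2, the smooth muscle actin of myofibroblasts, stood at 4370 to 7850 RPKM over the 12 libraries and was not called in either genotype.

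Cells make cholesterol from acetyl-CoA by way of mevalonate and squalene. When sterol in the endoplasmic reticulum is low, SCAP escorts the SREBP transcription factors to the Golgi, where they are cut and released to the nucleus. When sterol is plentiful, the INSIG proteins hold SCAP back. SREBP2 acts mainly on cholesterol synthesis and SREBP1 mainly on fatty acid synthesis, and both bind short sterol regulatory elements together with the factors NF-Y and Sp1. LXR is activated by oxysterols and drives the exporters ABCA1 and ABCG1.

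Promoter windows of the genes are shown because most of them moved together in the results that follow. RefSeq windows on the GRCm38.p6 build, from 250 bases before to 50 bases after a start site, were at hand for 28 of the 36 genes, in 37 windows. The strings searched were TCACNCCAC (a sterol regulatory element), CCAAT (the NF-Y box), GGGCGG (the Sp1 box) and CACGTG (the E-box), on both strands. The sequences below run 5′ to 3′ over the 250 bases before the start. Capitals mark the sterol regulatory element in Hmgcs1, and in all 5 genes the NF-Y box, which reads ATTGG where it lies on the opposite strand. Hmgcs1, Mvd and Nsdhl stand for the enzymes that fell in both genotypes, Mvk has the most boxes of the 5, and Fasn stands for the genes that were not called in the main fit of either genotype.
Hmgcs1, chr13:119690101-119690350, plus strand: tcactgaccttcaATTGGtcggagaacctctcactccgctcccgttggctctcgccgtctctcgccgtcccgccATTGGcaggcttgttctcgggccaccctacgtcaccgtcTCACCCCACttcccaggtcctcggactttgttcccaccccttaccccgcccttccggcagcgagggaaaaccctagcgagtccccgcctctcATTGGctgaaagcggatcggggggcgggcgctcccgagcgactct
Mvk, chr5:114444019-114444268, plus strand: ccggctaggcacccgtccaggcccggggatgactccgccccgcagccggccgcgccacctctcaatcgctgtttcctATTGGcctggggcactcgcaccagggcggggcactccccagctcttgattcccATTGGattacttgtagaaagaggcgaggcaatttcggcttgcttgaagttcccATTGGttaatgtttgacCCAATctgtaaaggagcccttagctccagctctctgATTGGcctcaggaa
Mvd, chr8:122443423-122443672, minus strand: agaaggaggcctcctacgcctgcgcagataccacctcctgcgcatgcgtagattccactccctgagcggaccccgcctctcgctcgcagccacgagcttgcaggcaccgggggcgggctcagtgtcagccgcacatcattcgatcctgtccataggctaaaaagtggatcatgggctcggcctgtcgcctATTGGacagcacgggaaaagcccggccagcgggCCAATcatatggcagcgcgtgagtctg
Nsdhl, chrX:72918271-72918520, plus strand: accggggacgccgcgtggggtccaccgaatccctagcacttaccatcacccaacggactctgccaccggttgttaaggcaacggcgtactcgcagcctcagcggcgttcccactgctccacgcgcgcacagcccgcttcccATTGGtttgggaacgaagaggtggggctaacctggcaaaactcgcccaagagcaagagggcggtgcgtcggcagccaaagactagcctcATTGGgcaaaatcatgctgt
Fasn, chr11:120824548-120824797, minus strand: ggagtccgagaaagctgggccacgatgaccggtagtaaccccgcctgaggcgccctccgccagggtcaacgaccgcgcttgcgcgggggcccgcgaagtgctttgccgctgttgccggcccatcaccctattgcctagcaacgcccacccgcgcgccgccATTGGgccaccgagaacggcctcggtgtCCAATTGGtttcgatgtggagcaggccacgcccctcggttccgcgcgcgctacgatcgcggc
The NF-Y box was present in 22 of the 37 windows (59.5%), against 37.4% of all 32851 windows, and in 21 of the 28 genes. The Sp1 box was in 73% of the members' windows against 35.7% of all, and the E-box in 18.9% against 7.15%. A sterol regulatory element of the form searched lay in 1 member window, that of Hmgcs1, 137 bases before the start, and in 1.24% of all windows. Mvk had 5 NF-Y boxes in the stretch shown and Fasn had 3, 2 of which overlap. These are counts of letters and not of bound sites.

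TGF-β2 lowered most of the genes in both genotypes. In WT fibroblasts 35 of the 36 were tested, 27 were called lower and 1 higher, with 7 not called. Over all 10743 genes tested, 12.2% were called lower and 10.4% higher. At a change of 2-fold or more, 21 were called lower against 5.09% of all genes. Their median log2 fold change was -1.09, beside -0.0027 over all genes. Every stimulated library lay below every control library for 33 of the 35 genes, against 24.9% of all genes tested.

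In Nox4 KO fibroblasts 28 of 35 genes were called lower and 1 higher, against 14.9% lower and 15.1% higher among all 10809 genes tested. At 2-fold or more, 19 were called lower (4.58% of all genes). The median log2 fold change was -1.06, against -0.0144 over all genes, and the groups did not overlap for 30 lower genes (31.5% of all genes). In a fit of all 12 libraries with genotype as a term, 31 of 35 were called lower, against 21% of all genes, and the median was -1.02. Of the 35 genes, 27 were called in both genotypes, Abcg1 higher and the others lower. Fads1 was called in WT only, Acat2 and Mvk in Nox4 KO only, and Ebp, Srebf1, Scap, Acaca and Fasn in neither. Whether those with a call in 1 genotype differed between genotypes was tested by the interaction given further on. Without Nox4 KO TGF-β2 library 2, the count of lower genes in Nox4 KO dropped to 17, and it lay between 20 and 29 when any other library was left out. Calls over all genes moved too, from 1308 lower in WT to between 712 and 1756 and from 1606 lower in Nox4 KO to between 562 and 1798. Leaving out 1 library ended a call 34 times in WT, over 9 genes, and 29 times in Nox4 KO, over 11 genes. The log2 fold change kept its direction each time, at 77% to 108% (median 97.3%) of its value with all libraries in WT and at 73% to 117% (median 97%) in Nox4 KO.

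**Figure D1:**
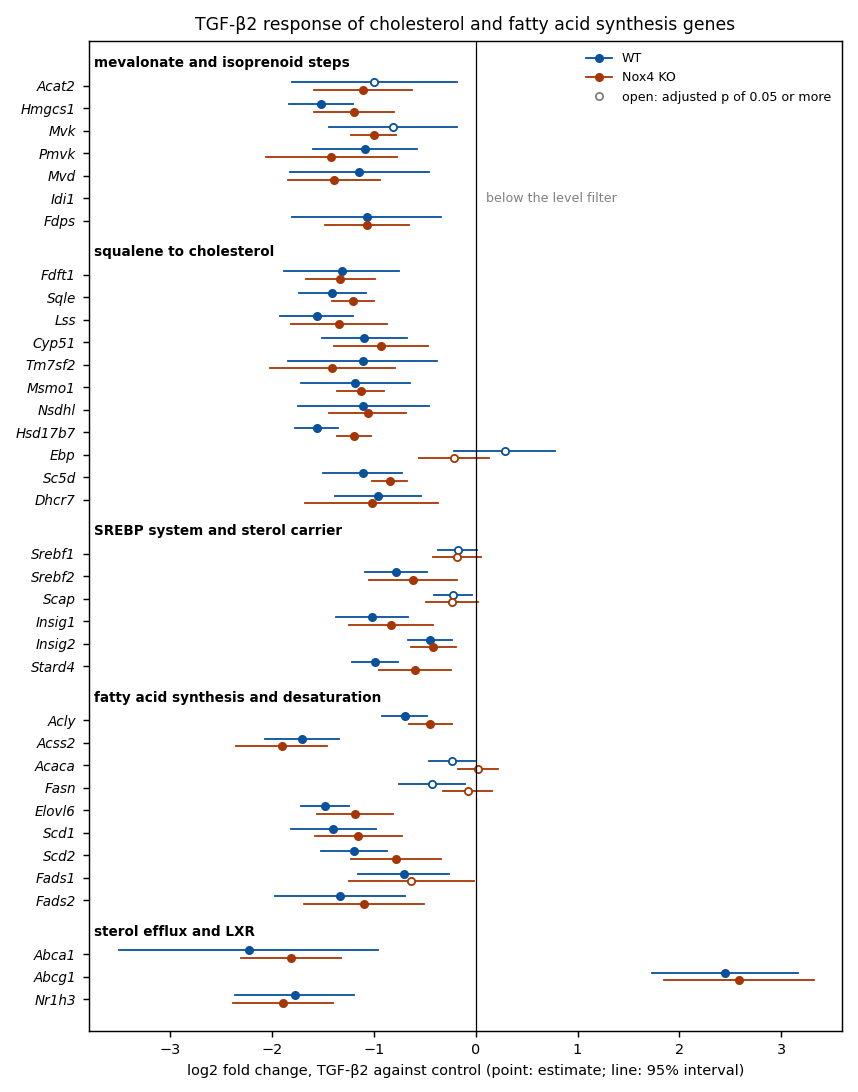
Log2 fold change of each gene after TGF-β2 (x axis), with its 95% interval, in WT (blue) and Nox4 KO (brown), grouped by role; open points had an adjusted p of 0.05 or more. Nearly all estimates lie left of 0, Abcg1 lies at 2.45 and 2.59, and Idi1 was below the level filter.

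Of the 7 mevalonate and isoprenoid genes, 6 were tested, and 4 were called lower in WT and 6 in Nox4 KO. Hmgcs1, which condenses acetyl groups into HMG-CoA, stood at 61.6, 58.1 and 60.0 RPKM in WT control and at 21, 23.3 and 16.8 RPKM after TGF-β2. In Nox4 KO it stood at 73.6, 60.6 and 54.2 RPKM in control and at 29.9, 25.2 and 22.3 RPKM after TGF-β2. The ranges were far apart in both genotypes, and Hmgcs1 fell by 1.52 ± 0.13 in WT (adjusted p = 0.00096) and by 1.20 ± 0.16 in Nox4 KO (adjusted p = 0.0057) on the log2 scale.

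Pmvk, the kinase that adds the next phosphate to mevalonate phosphate, went from 14.0 to 14.9 RPKM in WT control down to 4.96 to 9.16 RPKM, and in Nox4 KO from 13.0 to 24.4 RPKM down to 5.52 to 7.36 RPKM. Mvd, which decarboxylates mevalonate diphosphate, went from 22.7 to 24.5 RPKM in WT down to 6.67 to 15.7 RPKM, and in Nox4 KO from 23.0 to 36.8 RPKM down to 9.86 to 11.3 RPKM. Both fell in both genotypes, Pmvk by 1.09 ± 0.21 and 1.42 ± 0.26 and Mvd by 1.14 ± 0.29 and 1.39 ± 0.19 (log2, WT and Nox4 KO). Fdps, which joins isoprene units into farnesyl diphosphate, fell by 1.07 in both genotypes (SE 0.31 and 0.17), with an adjusted p of 0.048 in WT. Exons of Fdps overlap those of Gm43738 on the same strand over 1124 bases, and 64.1% of its 50-base windows recur in transcripts of other genes, so its level is uncertain.

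Acat2, the cytosolic thiolase that opens the route, and Mvk, mevalonate kinase, fell in Nox4 KO by 1.10 ± 0.20 and 1.00 ± 0.091. In WT their log2 fold changes of -0.99 ± 0.34 and -0.81 ± 0.26 were not called (adjusted p = 0.078 and 0.068), although no stimulated library overlapped the controls. WT TGF-β2 library 2 was the high one: Acat2 stood there at 9.28 RPKM against 4.99 and 3.3 RPKM in the other stimulated libraries, and Mvk at 18.6 against 11.5 and 8.43 RPKM. Without that library both were called (adjusted p = 0.0065 and 0.0063). In Acat2, 40.7% of 50-base windows recur in other transcripts, mostly of Acat3. Idi1, the isopentenyl diphosphate isomerase, was below the filter, with 53 to 91 counts in WT control, 17 to 23 in WT TGF-β2, 61 to 96 in Nox4 KO control and 27 to 41 in Nox4 KO TGF-β2. Its counts did not overlap either, and 28.6% of its windows recur elsewhere, most of them in the pseudogene Gm13502. Some calls were lost when 1 library was left out, with little change in the fold. In WT, Mvd lost its call without any 1 of the 3 control libraries or TGF-β2 library 1 (log2 fold change -1.17 to -1.08, adjusted p 0.071 to 0.095), Fdps without any library but TGF-β2 library 2 (-1.13 to -0.824, 0.062 to 0.13), and Pmvk without TGF-β2 library 1 (-1.05, 0.052). In Nox4 KO, Acat2 and Pmvk lost theirs without TGF-β2 library 2 (-1.06 and -1.37, 0.056 and 0.062).

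Of the 11 enzymes from squalene to cholesterol, 10 were called lower in each genotype, and the exception was Ebp in both. Sqle, the squalene epoxidase, stood at 67.6, 62.1 and 64.6 RPKM in WT control and at 21.6, 29.2 and 20.7 RPKM after TGF-β2, and in Nox4 KO at 75.0, 66.2 and 62.9 RPKM and then 28.0, 27.1 and 28.4 RPKM. Lss, which folds the epoxide into lanosterol, stood at 19.2, 19.9 and 17.7 RPKM in WT control and at 5.84, 7.64 and 5.28 RPKM after TGF-β2. It had 26.2, 18.7 and 16.8 RPKM in Nox4 KO control and 8.78, 7.03 and 7.17 RPKM after TGF-β2. Sqle fell by 1.41 ± 0.14 and 1.20 ± 0.085 and Lss by 1.56 ± 0.15 and 1.34 ± 0.19 (log2, WT and Nox4 KO).

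Hsd17b7, a reductase in the removal of ring methyl groups, had the smallest SE of the sterol enzymes in WT. It stood at 20.7, 22.7 and 21.5 RPKM in WT control and at 7.11, 7.5 and 6.8 RPKM after TGF-β2, a fall of 1.56 ± 0.087 (adjusted p = 0.00038). In Nox4 KO it stood at 21.7, 18.8 and 19.9 RPKM and then at 8.37, 7.94 and 8.56 RPKM, a fall of 1.20 ± 0.070 (adjusted p = 0.0011). Msmo1 and Nsdhl, which act at the same methyl groups, fell by 1.18 ± 0.23 and 1.10 ± 0.27 in WT and by 1.13 ± 0.095 and 1.06 ± 0.16 in Nox4 KO.

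Fdft1, the squalene synthase, fell by 1.32 ± 0.24 and 1.33 ± 0.14, and Cyp51, the lanosterol demethylase, by 1.09 ± 0.18 and 0.93 ± 0.19. Tm7sf2, a sterol reductase, fell by 1.11 ± 0.31 and 1.41 ± 0.25. Sc5d, the desaturase that follows, fell by 1.11 ± 0.16 and 0.84 ± 0.070, and Dhcr7, the reductase that ends 1 branch of the route, by 0.96 ± 0.18 and 1.02 ± 0.27. After TGF-β2 the mean RPKM of these 5 enzymes was between 35.5% and 52.5% of the control mean. Fdft1 shares 774 bases with Ctsb on the opposite strand and Tm7sf2 shares 532 bases with Vps51 on its own strand, and the strand setting of the counting is not given in the sources used here, so reads of these partners cannot be told apart. In WT, Tm7sf2 lost its call without any library but TGF-β2 library 2 (adjusted p 0.053 to 0.12) and Nsdhl without any 1 control library or TGF-β2 library 1 (0.062 to 0.091). In Nox4 KO, Dhcr7 lost its call without any library but control library 3 (0.052 to 0.11), and Cyp51 without control library 2 or TGF-β2 library 2 (0.056 and 0.071).

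Ebp, the isomerase that shifts a ring double bond late in the route, was called in neither genotype. It stood at 16.5, 15.2 and 15.2 RPKM in WT control and at 16.8, 25.2 and 13.9 RPKM after TGF-β2, and in Nox4 KO at 20.3, 18.1 and 15.2 RPKM and then 14.4, 16.2 and 12.9 RPKM. The groups overlapped in both genotypes, with log2 fold changes of 0.29 (95% interval -0.21 to 0.78) and -0.21 (-0.56 to 0.14). A fall of 2-fold lay outside both intervals. Summed over the 18 sterol enzymes from Acat2 to Dhcr7, CPM (counts scaled to the library's total, without gene length) went from 1505 ± 47.1 (SD, n = 3) to 638.9 ± 175 in WT and from 1626 ± 243 to 720.0 ± 63.1 in Nox4 KO.

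In some groups the sterol enzymes ranked the libraries alike. Among the 17 tested, WT TGF-β2 library 2 held the highest value of its group for 17 and library 3 the lowest for 17, where the other 10855 genes tested were highest in library 2 in 50.2% and lowest in library 3 in 42.9%. On average over the 17 enzymes, log2 CPM lay 0.63 below the WT control mean in library 2 and 1.52 below it in library 3. Nox4 KO control library 1 was highest for 17 of 17, against 31% of other genes, with an average of 0.37 above the WT control mean. In Nox4 KO TGF-β2 the ranks were mixed, with the highest value in libraries 1, 2 and 3 for 12, 1 and 4 enzymes and the lowest for 0, 9 and 8. Over all genes WT TGF-β2 library 2 also stood apart from its group, with a chi-square per gene of 125 and 154 against libraries 1 and 3, which differed from each other by 30.3. Each other group also had 1 library apart, library 3. Its values against libraries 1 and 2 were 124 and 83.2 in Nox4 KO TGF-β2, 93 and 70.9 in Nox4 KO control and 53.2 and 65.3 in WT control. Libraries 1 and 2 of these groups differed by 26.1, 28.4 and 15.1. Leaving out WT TGF-β2 library 2 gave 32 lower genes in WT and a median of -1.36, leaving out library 3 gave 24 and -0.904, and leaving out Nox4 KO control library 1 gave 23 in Nox4 KO and a median of -0.896.

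**Figure D2:**
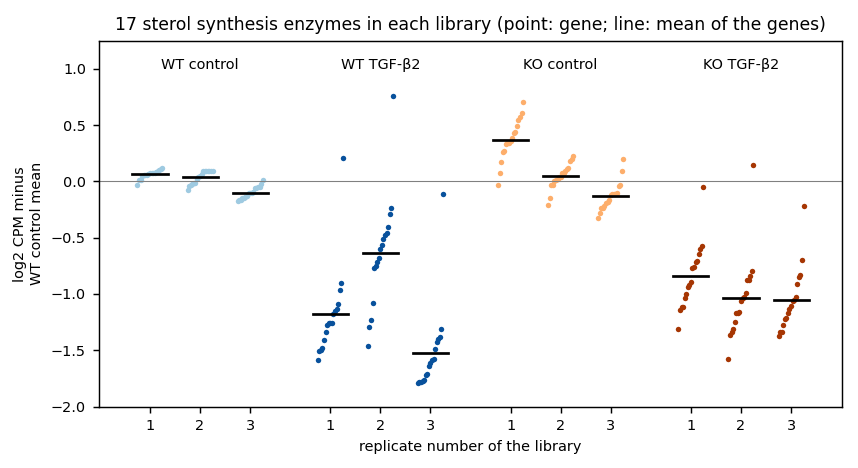
Log2 CPM minus the WT control mean (y axis) of the 17 tested sterol synthesis enzymes in each of the 12 libraries (x axis), with the mean over genes as a line. The stimulated means lie between -1.52 and -0.632 and the control means between -0.128 and 0.37, and the high point of each stimulated library is Ebp.

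Among the regulators, Srebf2 fell and Srebf1 was not called within either genotype. Srebf2 stood at 42.2, 42.9 and 38.7 RPKM in WT control and at 25.1, 25.2 and 19.7 RPKM after TGF-β2, and in Nox4 KO at 51.7, 45.0 and 36.3 RPKM and then 32.1, 26.5 and 23.3 RPKM. It fell by 0.78 ± 0.13 in WT (adjusted p = 0.0072) and by 0.61 ± 0.18 in Nox4 KO (adjusted p = 0.045). The call in Nox4 KO was lost with edgeR's filterByExpr or with no filter on low values (0.054 and 0.053) and without control library 1 or 2 or TGF-β2 library 2 or 3 (0.088 to 0.14).

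Srebf1 stood at 27.9 to 29.0 RPKM in WT control and 23.2 to 26.1 RPKM after TGF-β2, and at 29.7 to 34.6 and 24.3 to 28.5 RPKM in Nox4 KO. The ranges in RPKM did not overlap, but the log2 fold changes of -0.18 ± 0.079 and -0.18 ± 0.095 were not called (adjusted p = 0.15 and 0.19). RPKM is scaled by the library's total, while the test also applied TMM factors. In Nox4 KO these were 1.027 to 1.072 in control and 0.9583 to 0.9803 after TGF-β2. The narrow gap between the Nox4 KO ranges need not hold under the test's scaling. With the replicate number as a block, under which the Nox4 KO libraries paired, the change in Nox4 KO was called (adjusted p = 0.026), and without WT TGF-β2 library 2 so was that in WT (0.045). In the fit of all 12 libraries it fell by 0.15 ± 0.056 (adjusted p = 0.045). The ratio of Srebf2 to Srebf1 in RPKM was 1.34 to 1.51 in WT control and 0.849 to 1.03 after TGF-β2, and 1.22 to 1.49 and 0.908 to 1.13 in Nox4 KO, with no overlap. The gene-level counts do not separate the SREBP1a and SREBP1c transcripts.

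Scap, the escort, was at 26.1 to 27.6 RPKM in WT control and 21.5 to 22.9 RPKM after TGF-β2, with log2 fold changes of -0.22 ± 0.079 and -0.23 ± 0.10 that were not called (adjusted p = 0.090 and 0.14). It was called in WT without TGF-β2 library 2 (0.047) and in Nox4 KO without control library 3 (0.037), and in the fit of all 12 libraries it fell by 0.20 ± 0.063 (adjusted p = 0.023). Insig1, itself a known SREBP target, stood at 22.9, 21.1 and 21.3 RPKM in WT control and at 10.8, 12.2 and 8.32 RPKM after TGF-β2. In Nox4 KO the levels were 27.9, 23.5 and 19.4 RPKM and then 14.5, 12.1 and 11.0 RPKM. Insig1 fell by 1.02 ± 0.15 and 0.83 ± 0.17 and Insig2 by the smaller 0.45 ± 0.091 and 0.41 ± 0.090, and the ratio of Insig1 to Insig2 lay at 1.44 to 1.64 in WT control and at 0.777 to 1.2 in stimulated WT, while the Nox4 KO ranges of 1.21 to 2.03 and 0.988 to 1.56 overlapped.

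Stard4, which carries cholesterol between membranes, stood at 9.47 to 10.0 RPKM in WT control and 4.34 to 5.15 RPKM after TGF-β2, and at 9.72 to 11.8 and 5.53 to 7.68 RPKM in Nox4 KO. It fell by 0.99 ± 0.094 in WT and by 0.59 ± 0.15 in Nox4 KO. In WT, Insig2 lost its call without any 1 control library or TGF-β2 library 1 (adjusted p 0.058 to 0.067). In Nox4 KO, Stard4 lost its call without control library 1 or 2 or TGF-β2 library 2 (0.075 to 0.099), Insig1 without control library 2 or TGF-β2 library 2 (0.055 and 0.071), and Insig2 without these or TGF-β2 library 1 (0.052 to 0.070).

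**Figure D3:**
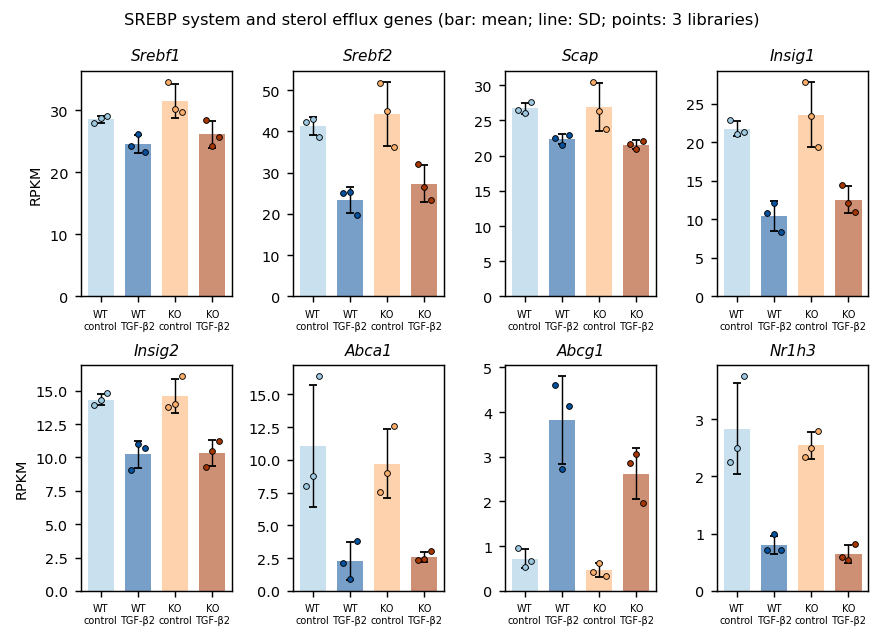
RPKM (y axis, from 0) of the SREBP system and sterol efflux genes in the 4 groups, as mean with SD and the 3 libraries as points. Srebf2, Insig1, Abca1 and Nr1h3 are lower after TGF-β2, Abcg1 is higher, and the changes of Srebf1 and Scap are small.

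Of the 9 fatty acid genes, 7 were called lower in WT and 6 in Nox4 KO, and the pair at the centre of the route was called in neither. Acaca, the carboxylase that makes malonyl-CoA, stood at 2.74 to 2.9 RPKM in WT control and 2.18 to 2.45 RPKM after TGF-β2, and at 2.92 to 3.02 and 2.65 to 3.13 RPKM in Nox4 KO. Its log2 fold change was -0.24 ± 0.095 in WT (adjusted p = 0.12) and 0.02 ± 0.080 in Nox4 KO (adjusted p = 0.86), and the latter turned to -0.065 under scaling by library size alone and to -0.058 without TGF-β2 library 1. In Acaca, 49.1% of 50-base windows recur in the pseudogene Gm5182.

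Fasn, the synthase that builds palmitate, stood at 37.5, 41.4 and 37.3 RPKM in WT control and at 30.9, 23.7 and 29.2 RPKM in stimulated cells. Its log2 fold change was -0.43 (95% interval -0.75 to -0.11, adjusted p = 0.063). Without WT TGF-β2 library 2 it was called by edgeR (adjusted p = 0.048). So it was with all 12 libraries in the fit (0.0218), with scaling by library size only (0.0356) and with DESeq2 (0.0211). In Nox4 KO it stood at 42.9, 37.8 and 37.3 RPKM and then 38.8, 33.7 and 32.9 RPKM, which overlap, with a log2 fold change of -0.08 (-0.32 to 0.16, adjusted p = 0.58). Both intervals for Fasn leave out a fall of 2-fold.

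Most enzymes on either side of that pair fell. Acss2, which makes acetyl-CoA from acetate, stood at 5.88, 6.06 and 6.91 RPKM in WT control and at 1.5, 2.25 and 1.87 RPKM after TGF-β2, and in Nox4 KO at 8.91, 6.06 and 6.84 RPKM and then 1.82, 1.56 and 2.12 RPKM. Its falls of 1.71 ± 0.15 and 1.90 ± 0.18 were larger estimates than those of all 17 sterol enzymes tested, a difference that was not itself tested. Acly, which makes acetyl-CoA from citrate, fell less, by 0.70 ± 0.091 and 0.44 ± 0.089, from 76.3 to 80.8 RPKM down to 44.9 to 48.6 RPKM in WT and from 74.3 to 90.9 down to 55.2 to 57.5 RPKM in Nox4 KO.

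Elovl6, which lengthens palmitate, fell by 1.48 ± 0.099 and 1.19 ± 0.15, to 3.18, 3.9 and 3.6 RPKM in WT from 10.0, 9.52 and 11.0 RPKM. Scd1, the stearoyl-CoA desaturase, stood at 49.7, 65.1 and 49.4 RPKM in WT control and at 19.2, 24.5 and 17.1 RPKM after TGF-β2, and in Nox4 KO at 84.5, 61.2 and 80.1 RPKM and then 32.5, 25.4 and 37.9 RPKM. Scd2, its paralog, was the most abundant of the 36 genes, at 167, 169 and 167 RPKM in WT control and 68.9, 85.2 and 60.0 RPKM after TGF-β2, and at 206, 164 and 174 and then 126, 83.2 and 89.1 RPKM in Nox4 KO. The desaturases fell in both genotypes with no overlap, Scd1 by 1.4 ± 0.17 and 1.15 ± 0.18 and Scd2 by 1.19 ± 0.14 and 0.78 ± 0.18. Fewer than 5% of the windows of either recur in another gene, mostly among the Scd paralogs.

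Fads2, which starts the desaturation of polyunsaturated fatty acids, stood at 39.5, 45.8 and 38.1 RPKM in WT control and at 14.5, 22.9 and 10.5 RPKM after TGF-β2, a fall of 1.33 ± 0.27, and it fell by 1.10 ± 0.24 in Nox4 KO. Fads1, the next desaturase, fell by 0.71 ± 0.19 in WT (adjusted p = 0.037). Its log2 fold change in Nox4 KO was -0.63 ± 0.25 with groups that overlap, at 30.8 to 49.9 and 18.5 to 31.2 RPKM (adjusted p = 0.11), and it was called with the replicate block (0.00042). In WT, Fads1 lost its call without any library but TGF-β2 library 2 (0.051 to 0.11) and Fads2 without control library 2 or TGF-β2 library 1 (0.052 and 0.056). In Nox4 KO, Scd2 lost its call without control library 1 or 2 or TGF-β2 library 2 or 3 (0.051 to 0.087), Fads2 without control library 1 or 2 or TGF-β2 library 2 (0.058 to 0.084), and Acly without TGF-β2 library 2 (0.070).

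**Figure D4:**
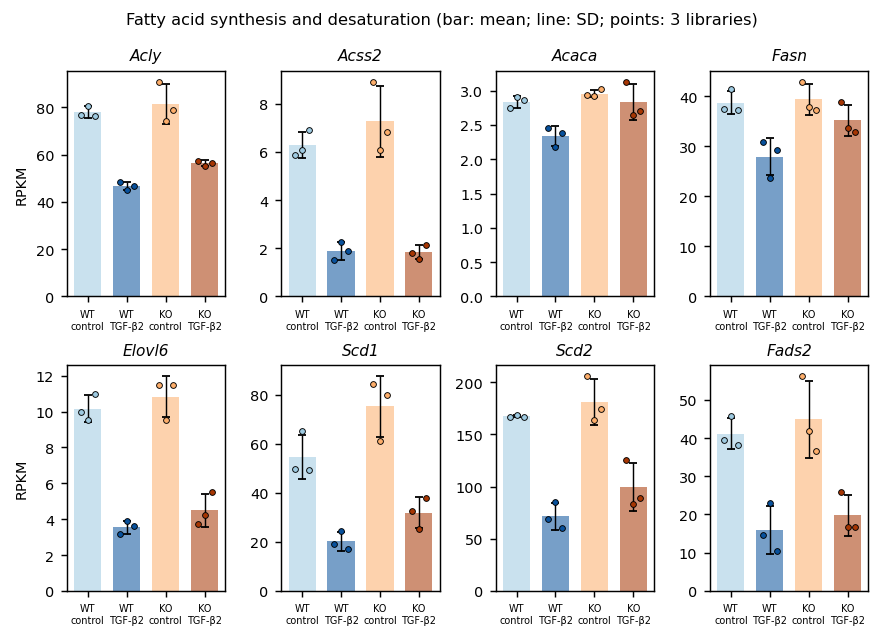
RPKM (y axis, from 0) of 8 fatty acid synthesis and desaturation genes in the 4 groups, as mean with SD and the 3 libraries as points. Acss2, Elovl6, Scd1, Scd2 and Fads2 are separated between control and TGF-β2 in both genotypes, while Acaca and Fasn of the Nox4 KO groups overlap.

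The exporters moved in opposite directions. Abca1, which loads cholesterol onto lipid-poor apolipoprotein, stood at 7.98, 8.77 and 16.4 RPKM in WT control and at 2.16, 0.876 and 3.78 RPKM after TGF-β2. In Nox4 KO it stood at 7.54, 8.98 and 12.6 RPKM and then at 2.34, 2.41 and 3.04 RPKM. It fell by 2.23 ± 0.54 in WT (adjusted p = 0.027) and by 1.81 ± 0.20 in Nox4 KO (adjusted p = 0.0039), and the WT call was lost without any 1 control library or TGF-β2 library 1 (0.056 to 0.094). Summed macrophage markers were also highest in WT control library 3, at 176.7 CPM, whereas in Nox4 KO control they were highest in library 1, at 137.7 CPM, where Abca1 was lowest. In WT TGF-β2 libraries 1, 2 and 3 they were 51.72, 33.06 and 120.4 CPM, in the same order as Abca1. In Nox4 KO TGF-β2 they were 97.71, 37.35 and 21.84 CPM, in the reverse order. The part of macrophages in Abca1 was not tested.

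Abcg1, which passes cholesterol to mature lipoprotein, stood at 0.966, 0.533 and 0.667 RPKM in WT control and at 4.6, 2.72 and 4.14 RPKM after TGF-β2, and in Nox4 KO at 0.416, 0.634 and 0.334 RPKM and then 2.86, 3.05 and 1.97 RPKM. It was the only 1 of the 36 genes called higher, by 2.45 ± 0.30 (adjusted p = 0.0029) and 2.59 ± 0.30 (adjusted p = 0.0043). Nr1h3, which encodes LXRα, went from 2.25, 2.5 and 3.75 RPKM to 0.708, 0.987 and 0.713 RPKM in WT and from 2.33, 2.49 and 2.8 RPKM to 0.586, 0.531 and 0.817 RPKM in Nox4 KO, falls of 1.78 ± 0.25 and 1.89 ± 0.20. The ratio of Abcg1 to Abca1 in RPKM was 0.0407 to 0.121 in WT control and 1.1 to 3.1 after TGF-β2, and 0.0264 to 0.0706 and 0.647 to 1.26 in Nox4 KO.

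Other genes of the same pathways are given by counts, to be read against the shares of all genes called, 12.2% lower and 10.4% higher in WT and 14.9% lower and 15.1% higher in Nox4 KO. Whether these lists differ from the 36 genes was not tested. Of 10 further sterol and isoprenoid genes, WT had 1 call, higher, and Nox4 KO had 2, both lower, and the median log2 fold changes were 0.0208 and 0.0931. Of 9 tested genes that process or degrade SREBP, 0 were called in either genotype by edgeR, with 2 and 3 at an unadjusted p below 0.05, a level that 4053 of 10743 and 4735 of 10809 genes reached. Among 16 tested genes of sterol uptake, storage and transport, WT had 5 lower and 1 higher call and Nox4 KO had 6 and 1. Of 19 further fatty acid genes, WT had 4 lower calls and Nox4 KO had 5 lower and 1 higher. Of 11 LXR genes and targets, 4 were called lower in each genotype and 1 was called higher in WT. Among the lower ones was Abca7, an ABCA1 relative, which fell by 1.35 ± 0.34 and 1.15 ± 0.17.

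Of 15 genes of glycerolipid synthesis and storage, WT had 3 calls in each direction and Nox4 KO had 4, beside the same shares of all genes. The higher ones included Plin2, which coats lipid droplets. Plin2 stood at 24.9 to 29.1 RPKM in WT control and at 88.1 to 134 RPKM after TGF-β2, and it rose by 2.02 ± 0.17 in WT and 1.91 ± 0.19 in Nox4 KO. Gpat3, which starts triglyceride assembly, rose by 2.01 ± 0.18 and 1.56 ± 0.43, and Lpin3, a phosphatidate phosphatase, by 2.33 ± 0.13 and 2.52 ± 0.23. Lpin1, its paralog, fell by 1.77 ± 0.26 and 1.33 ± 0.21.

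No gene of the 36 was called between genotypes. In control cells 34 were tested and 0 were called by edgeR or DESeq2, as were 0 of all 10767 genes by edgeR (0%). DESeq2 called 19 of all genes lower (0.176%) and 9 higher (0.0836%). With so few calls over all genes, a count of 0 does not set the 34 apart. The median log2 difference of the 34 genes between Nox4 KO and WT was 0.0799, and 28 lay above 0, beside 5453 of all 10767 genes. Of the 34, 2 had an unadjusted p below 0.05, against 5.54% of all genes. These were Mvk (0.24, 95% interval 0.013 to 0.47) and Scd1 (0.42, 0.022 to 0.81), and both had an adjusted p of 0.83. The median turned to -0.0548 without Nox4 KO control library 1, the library high for sterol enzymes, and lay between 0.0454 and 0.193 without any other.

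After TGF-β2 again 0 of 34 were called by either tool, and 0% of all 10439 genes by edgeR. DESeq2 called 8 of all genes lower and 8 higher (0.0766% each). The median difference of the 34 genes was 0.207, and 28 lay above 0, beside 5257 of all 10439 genes. Of the 34, 6 had an unadjusted p below 0.05, against 3.23% of all genes. All 6 were higher in Nox4 KO: Hsd17b7 by 0.24 (95% interval 0.037 to 0.44), Stard4 by 0.47 (0.13 to 0.82), Acly by 0.29 (0.069 to 0.51), Acaca by 0.29 (0.010 to 0.57), Scd1 by 0.68 (0.26 to 1.10) and Scd2 by 0.50 (0.040 to 0.97), with an adjusted p of 0.84 each. WT TGF-β2 library 2 held the highest sterol enzyme levels of its group. Without it the median was 0.393 and 16 genes had an unadjusted p below 0.05, still with 0 called. Without Nox4 KO TGF-β2 library 1 the median was 0.109 with 2 such genes, and without WT TGF-β2 library 3 it was 0.0992 with 4.

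The interaction, which asks whether the TGF-β2 response differed between genotypes, was called for 0 of 35 genes by edgeR and by DESeq2, and for 0% of all 10890 genes by edgeR. DESeq2 called it below 0 for 6 of all genes (0.0551%) and above 0 for 0. The smallest adjusted p by edgeR was 0.85. The estimate lay above 0, the Nox4 KO change being the less negative or more positive, for 25 of 35, where 50.2% of all genes lay above 0, with a median of 0.149 and a range of -0.481 to 0.429. That median depended on single libraries. It was 0.00797 without Nox4 KO control library 3, 0.0336 without WT TGF-β2 library 3, 0.0459 without Nox4 KO TGF-β2 library 1 and 0.0892 without WT control library 1, and it was 0.267 without Nox4 KO control library 1 and 0.284 without WT TGF-β2 library 2. An unadjusted p below 0.05 was reached by 3 genes, against 2.68% of all: Hsd17b7 (0.38, 95% interval 0.16 to 0.60), Stard4 (0.41, 0.028 to 0.79) and Acaca (0.27, 0.0015 to 0.54). For Ebp the interval was -1.06 to 0.10, for Scd2 -0.078 to 0.93 and for Abca1 -0.95 to 1.79, and differences inside these intervals were not excluded with 3 libraries a group.

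Among the fibroblast markers 2 of 10 were called lower in WT and 3 in Nox4 KO, where 12.2% and 14.9% of all genes were. Pdgfra, a growth factor receptor of fibroblasts, fell by 3.35 ± 0.24 in WT, from a mean of 39.9 RPKM in control to 3.79 RPKM, and by 2.98 ± 0.20 in Nox4 KO. The fibroblast markers' summed CPM averaged 44450 in WT control and 36250 after TGF-β2, and 44000 and 39980 in Nox4 KO. Markers of lipid-rich skin cells were low. Of 9 adipocyte markers, Retn had 0 counts in every library, and Lep, Cidec, Plin1, Cfd and Adipoq did not exceed 13 counts in any. The summed adipocyte markers were 14.36 to 16.12 CPM in WT control and 5.884 to 7.476 CPM after TGF-β2, and 9.27 to 14.93 and 4.195 to 5.455 CPM in Nox4 KO, mainly from Fabp4, Pparg and Lipe. Fabp4, a fatty acid binding protein, fell in WT by 2.08 ± 0.43, and Lipe, a lipase, fell by 0.87 ± 0.20 and 1.15 ± 0.20. Mean Fabp4 went from 3.77 to 0.865 RPKM in WT and from 2.31 to 0.451 RPKM in Nox4 KO. Mean Pparg went from 1.99 to 1.02 and from 1.56 to 0.637 RPKM. Of these 3 tested adipocyte markers, 2 were called lower in WT and 1 in Nox4 KO. The summed macrophage markers were 43.75 to 176.7 CPM in WT control and 33.06 to 120.4 CPM after TGF-β2, and 32.95 to 137.7 and 21.84 to 97.71 CPM in Nox4 KO. Within each genotype edgeR called 0 of the 7 tested markers and 0 had an unadjusted p below 0.05. All 7 estimates lay below 0 in both genotypes, beside 5406 of 10743 genes in WT and 5603 of 10809 in Nox4 KO. In the fit of all 12 libraries 0 of the 7 were called and 1 had an unadjusted p below 0.05, beside 5790 of 10890 genes. Summed endothelial markers were at most 31.06 CPM, and 1 of 6 reached 1 RPKM. For comparison, the 36 genes summed to 4578 ± 94.5 CPM in WT control and 2290 ± 272 CPM after TGF-β2, and to 4956 ± 586 and 2770 ± 305 CPM in Nox4 KO (SD, n = 3). The part of these other cells in the results was not tested.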

How the data were processed

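RNA from 12 cultures was sequenced, 3 for each of 4 groups given by the labels. The deposited values are raw gene counts. Per the labels and the study's methods, the authors called bases with CASAVA 1.8.2, aligned reads to GRCm38 with STAR 2.4 and counted with featureCounts 1.4.6. Only reads with 1 place in the genome were kept. The strand setting is not given in the sources used here. Library totals ran from 35118344 to 43796260 counts, and intervals cover the spread between cultures.

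The 36 genes, the other gene lists and the tests were chosen with earlier results of these data known, so they are not independent of them. Genes with a mean of at least 1 RPKM in a compared group were tested with edgeR 4.0.16 (R 4.3.3, TMM scaling, quasi-likelihood test), each pairwise comparison on its own 6 libraries, and p-values were adjusted by Benjamini and Hochberg over all genes tested. The interaction and the TGF-β2 change over both genotypes used all 12 libraries. RPKM and CPM used total counts and exon lengths of GENCODE M21, which matched all 21556 genes. Overlap between groups was judged on values scaled by total counts, without the TMM factors of the test. All 36 genes could be named; of the other lists, genes called with a change of at least 2-fold in WT or in Nox4 KO after TGF-β2 were named, with markers. Scripts were tested on simulated counts.

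Replicate numbers are shared by the groups. In Nox4 KO, deviations of same-numbered control and TGF-β2 libraries from their group means correlated over 10890 genes (r = 0.771, 0.685 and 0.748), so these numbers were taken to pair the libraries in the replicate block, an alternative. The main tests, their SEs, the interaction and the fits that left out 1 library did not use this pairing. This comes from the data and not from the labels. Alternatives were DESeq2 1.42.0, other scalings and filters, a replicate block, all 12 libraries in 1 fit, a 2-fold minimum and leaving out each library.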

Additional observations from a re-analysis of the deposited data

Results flagged for a closer look

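Mcat, a mitochondrial malonyl-CoA acyl carrier protein acyltransferase among the further fatty acid genes, had groups that did not overlap in either genotype, on opposite sides, in RPKM scaled by library total. In WT every TGF-β2 library lay above every control library (7.28, 6.86 and 7.6 RPKM in control and 7.73, 11.0 and 8.29 RPKM after TGF-β2), with a log2 fold change of 0.3522 that was not called (adjusted p = 0.118). In Nox4 KO every TGF-β2 library lay below every control library (8.33, 8.26 and 8.42 and then 7.8, 7.06 and 7.82 RPKM), with a log2 fold change of -0.05 (adjusted p = 0.596). The TMM factors used by the test were 1.027 to 1.072 in Nox4 KO control and 0.9583 to 0.9803 after TGF-β2. The Nox4 KO separation therefore depends on scaling by library total and need not hold under the test's scaling. The interaction was -0.39 ± 0.15, with an unadjusted p of 0.0261 by edgeR and an adjusted p of 0.854, so it was not called.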

How the results depend on the processing

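Lower counts of the 36 genes lay between 27 and 31 in WT and between 28 and 30 in Nox4 KO under the other tools, scalings, filters and blocks. With a 2-fold minimum, 18 genes were called lower over both genotypes, against 31 without it. Leaving out single libraries, the lower count ranged from 18 to 32 in WT and from 17 to 29 in Nox4 KO, and the medians from -1.36 to -0.904 and from -1.15 to -0.896. The median genotype difference after TGF-β2 ranged from 0.0992 to 0.393 and that of the interaction from 0.00797 to 0.284. Acaca in Nox4 KO turned to -0.0652 with library size only, a scaling that moved the median of all genes there to -0.102, and ranged from -0.0575 to 0.0617 when libraries were left out. The cause of these moves was not tested, beyond fewer libraries in those fits. DESeq2 added calls for Acat2, Mvk, Scap and Fasn in WT and Fads1 in Nox4 KO, and filterByExpr ended that of Fdps in WT (adjusted p = 0.0539). Genotype and interaction calls stayed at 0 of the 36 genes in every alternative run.

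With the replicate block, Nox4 KO had 30 lower genes. Calls over all genes there went from 1606 lower and 1637 higher to 3113 and 2729. In WT the pairing was less clear (r = 0.0727, 0.437 and 0.532). Each WT TGF-β2 library correlated best with the control of its own number, but control library 1 correlated better with TGF-β2 library 2 (r = 0.309). The block gave 29 lower genes in WT, adding Acat2 (-1.11) and Mvk (-0.881). Calls over all genes in WT went from 1308 lower and 1117 higher to 1761 and 1319. Between genotypes the correlations were 0.185, 0.00516 and 0.289 in control and 0.285, -0.179 and 0.238 after TGF-β2, and the block gave 0 calls among the 36 genes.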
